A study of Mus musculus with 16 samples.

Results

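The interferon response genes described here are 39 mouse genes that interferons induce, chosen by name. They were found as the probe sets whose annotation gave exactly 1 of the 39 symbols. Of the 39 genes, 37 had such a probe set, 59 of the 45101 probe sets on the array, while 18193 gene symbols in all had one. Isg15 and Ifi44 had no probe set with their symbol alone and were not analysed here. Oas3, Mx2 and Cxcl9 lay below the brightness filter, so 34 members were tested among 11042 genes. That filter used the mean over all 16 arrays. The RNA came from the whole aorta of 16 APOE-/- mice, which lack apolipoprotein E and develop atherosclerosis, with 1 Affymetrix array per mouse and all mice 18 weeks old. There were 4 groups of 4 mice: untreated non-diabetic mice, non-diabetic mice given RBX, diabetic mice, and diabetic mice given RBX. The diabetic mice had received STZ (streptozotocin), a chemical that destroys pancreatic beta cells, at the age of 6 weeks. All groups, the controls included, had the same genotype and 10 weeks of a high fat diet from 8 weeks of age. RBX is ruboxistaurin, an inhibitor of protein kinase C beta, which was mixed into that diet. The sources used here do not give its dose, the mice's sex or any vehicle for the non-diabetic mice. The comparisons ask what diabetes, RBX and the 2 together did to the aorta.

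Interferons are secreted proteins that bind receptors on the cell surface and, through JAK kinases, activate STAT proteins. Type I interferons lead to a complex of STATs with IRF9 that binds the interferon stimulated response element in promoters, and type II interferon leads to STAT dimers that bind the gamma activated site. The induced genes encode enzymes, GTPases and sensors that detect or restrict viruses and intracellular pathogens, and in arteries endothelial cells and macrophages are known to express them.

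Promoter sequences were available in RefSeq (GRCm38.p6) for 29 of the 39 members, as 33 windows of 300 bases from 250 before to 50 after the gene start. The core of the response element was searched as GAAANNGAAA on both strands, with overlapping matches allowed, also across motifs. It was found in 18 of the 33 member windows (54.5%), against 1131 of all 32851 windows (3.44%). The gamma activated site, searched as TTCNNNGAA, which reads the same on both strands, was found in 10 member windows (30.3%) and in 2726 of all windows (8.3%). Both motifs were in 6 member windows (18.2%) and in 0.454% of all windows. A match is a description of the letters only. The 160 bases before the start are given for 6 members, with matches to the response element core in capitals. Ifit1 and Bst2 passed the test in diabetic mice, Oas1a, Gbp2 and Igtp passed the test of unequal RBX effects, and Oasl2 passed both without a match in its window.

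The windows are chr19:34640729-34640888 on the plus strand for Ifit1, chr8:71537473-71537632 on the minus strand for Bst2, chr5:120907526-120907685 on the minus strand for Oas1a, chr3:142620503-142620662 on the plus strand for Gbp2, chr11:58199396-58199555 on the plus strand for Igtp and chr5:114896774-114896933 on the plus strand for Oasl2.
Ifit1: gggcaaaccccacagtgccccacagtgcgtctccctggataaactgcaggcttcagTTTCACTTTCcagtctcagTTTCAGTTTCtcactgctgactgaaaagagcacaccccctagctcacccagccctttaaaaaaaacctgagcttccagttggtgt
Bst2: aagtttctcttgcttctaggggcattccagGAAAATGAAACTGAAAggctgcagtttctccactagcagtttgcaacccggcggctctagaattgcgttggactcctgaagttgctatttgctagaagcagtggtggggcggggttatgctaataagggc
Oas1a: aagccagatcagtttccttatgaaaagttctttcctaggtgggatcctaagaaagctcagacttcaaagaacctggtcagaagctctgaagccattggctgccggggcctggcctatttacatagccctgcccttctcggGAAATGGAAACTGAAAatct
Gbp2: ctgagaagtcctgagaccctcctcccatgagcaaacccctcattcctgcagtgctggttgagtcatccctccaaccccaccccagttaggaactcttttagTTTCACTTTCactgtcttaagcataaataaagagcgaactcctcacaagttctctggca
Igtp: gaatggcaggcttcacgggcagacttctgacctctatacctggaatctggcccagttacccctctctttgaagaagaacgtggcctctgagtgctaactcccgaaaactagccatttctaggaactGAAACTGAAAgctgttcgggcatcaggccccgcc
Oasl2: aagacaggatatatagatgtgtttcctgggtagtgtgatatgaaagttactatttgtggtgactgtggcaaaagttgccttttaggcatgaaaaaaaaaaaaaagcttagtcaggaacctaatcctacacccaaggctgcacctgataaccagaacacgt

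In Ifit1 the matches begin 104 and 85 bases before the start, and in Gbp2 and Igtp the single match begins 59 and 34 bases before it. The capitals in Bst2 and Oas1a are each a pair of overlapping matches, beginning 130 and 124 bases before the start of Bst2 and 20 and 14 before that of Oas1a. In Ifih1 the match begins 32 bases after the start. Over the 16 tested members with a match in any window, the median log2 difference between diabetic and untreated non-diabetic mice was 0.47, and over the 9 tested members with windows but no match it was 0.35. For RBX in non-diabetic mice these medians were 0.46 and 0.48, so members with and without a match were near each other there.

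Signals are deposited intensity on a linear scale, and each array had the same trimmed mean of 1500.01. Differences are on the log2 scale, so that 1 is a doubling, and a gene was called where limma's p adjusted over all 11042 genes was under 0.05. Control probe sets set the arrays of non-diabetic RBX mice apart. Their log2 signal of the cre hybridisation control ranged from 18.24 to 19.13, against 17.26 to 17.93 in untreated non-diabetic mice, 17.67 to 18.07 in diabetic mice and 18.00 to 18.17 in diabetic RBX mice. Their log2 ratio of 3' to 5' Actb control probe sets, a measure of RNA and labelling length, was 1.67 to 2.51, against 0.85 to 1.32, 1.16 to 1.52 and 1.47 to 1.89. In neither measure did the 2 non-diabetic groups overlap, while the Actb ratios of the 2 RBX groups did.

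Averaged over the 34 members, each mouse's log2 level was set against the mean of the untreated non-diabetic mice. The 4 untreated non-diabetic mice lay between -0.08 and 0.08, the diabetic mice between 0.27 and 0.76, the non-diabetic RBX mice between 0.46 and 0.69, and the diabetic RBX mice between 0.40 and 0.62. Every treated or diabetic mouse was thus above every untreated non-diabetic mouse, and the other 3 groups overlapped each other. Diabetic mouse 3 had all 34 members above the untreated non-diabetic mean, and diabetic mouse 1 had 27. The control measures moved with the groups, and their part in these levels was not tested beyond the covariate fits given with each comparison. Untreated non-diabetic mouse 3 had a cre signal of 17.93 and an Actb ratio of 1.32, both within the range of the diabetic mice, and its member mean was -0.01. This is 1 mouse. Untreated non-diabetic mice 1, 2 and 4 had cre signals of 17.26, 17.30 and 17.49 and Actb ratios of 1.02, 0.85 and 0.97. All of these lay below every diabetic mouse, whose lowest values were 17.67 and 1.16. Untreated non-diabetic and diabetic mice thus overlapped in these measures only through untreated mouse 3. How far the array measures bear on the member levels was not tested with these mice.

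**Figure D1:**
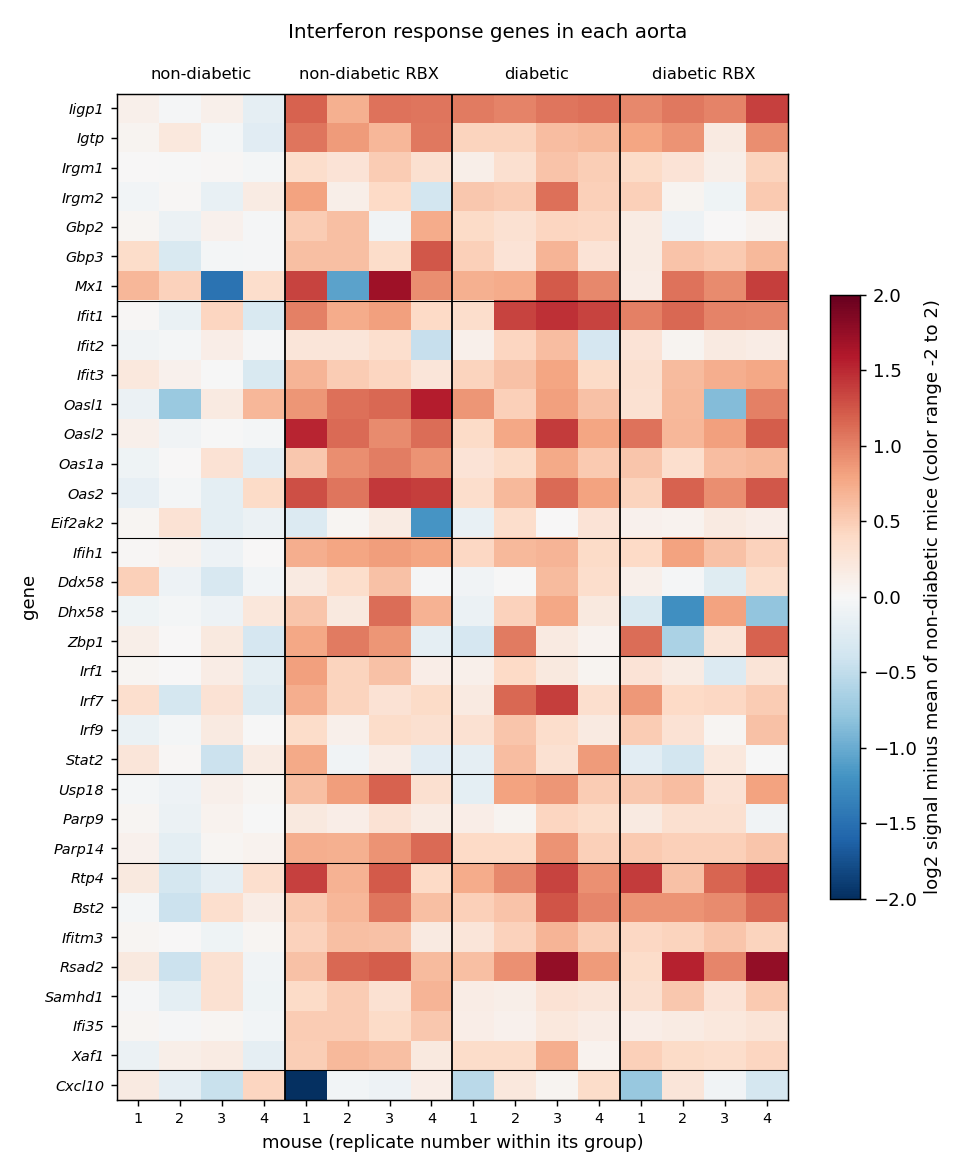
Log2 signal of the 34 tested interferon response genes (rows, in order of role) in each of the 16 mice (columns), minus the mean of the 4 untreated non-diabetic mice. Colors span -2 to 2; most genes are near 0 in untreated non-diabetic mice and above 0 in the other 3 groups, while Cxcl10 lies on both sides of 0 in every group.

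**Figure D2:**
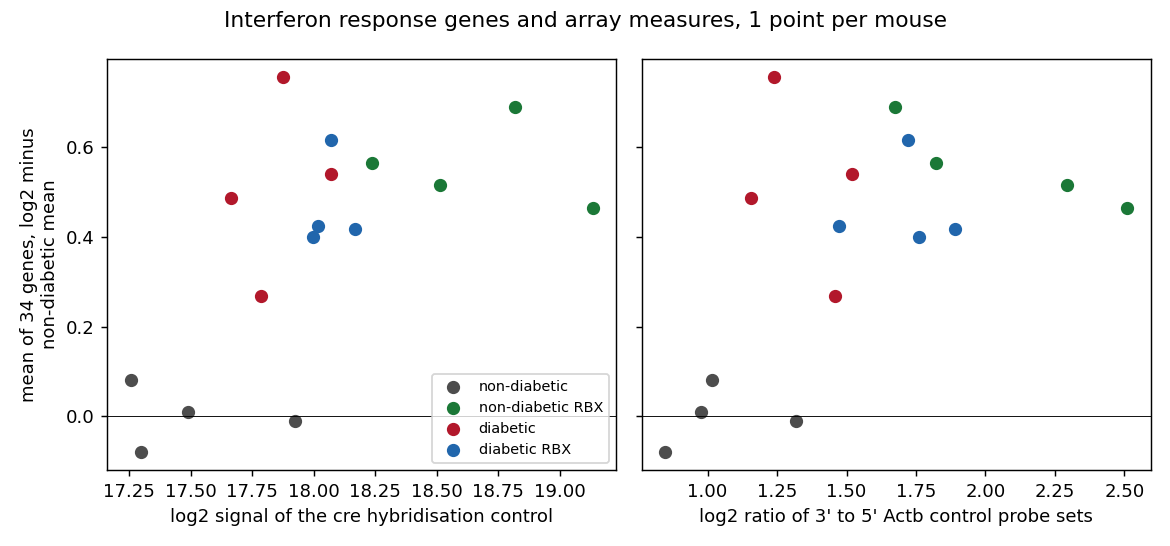
Mean log2 level of the 34 genes relative to untreated non-diabetic mice (vertical axis) against the log2 cre control signal (left) and the log2 ratio of 3' to 5' Actb control probe sets (right), 1 point per mouse. Non-diabetic RBX mice have the highest cre signals, 18.24 to 19.13, and member means of 0.46 to 0.69. Diabetic mice have cre signals of 17.67 to 18.07 and member means of 0.27 to 0.76.

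In diabetic mice without RBX, 7 of the 34 members rose against untreated non-diabetic mice and none fell, while 0.326% of all genes were called higher and 0.652% in either direction. The 7 were the GTPase Iigp1, the RNA-binding protein Ifit1, the 2'-5'-oligoadenylate synthetase-like Oasl2, the RNA sensor Ifih1, and the membrane and other effectors Rtp4, Bst2 and Ifitm3. All 34 members had values above 0, against 52.4% of all genes, with a median of 0.47 over the members and 0.01 over all genes. Without adjustment, 22 members had a p under 0.05, as did 15.2% of all genes. In 15 members the 4 diabetic mice lay wholly above the 4 untreated non-diabetic mice, which held for 4.56% of all genes. In bulk aorta, more cells that express these genes and more RNA per cell cannot be told apart. The number of calls rested on single mice and on the fit. It was 13 without diabetic mouse 1, 1 without any of untreated non-diabetic mice 1, 2 and 4 and diabetic mice 2 and 3, and 2 without diabetic mouse 4. Without diabetic RBX mouse 1, 3 or 4, which are in neither group compared but enter the filter and the shared spread, it was 4, 3 and 4. It was 4 when a gene's probe sets were averaged, 3 without an intensity trend in the variance, 20 with array weights and 1 with the cre signal as a covariate. With the Actb ratio as a covariate 3 of the 7 calls were lost and 1 other member passed. The members' median stayed between 0.39 and 0.56 over these and the other alternatives.

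The immunity-related and guanylate-binding GTPases are effectors that act on the vacuoles of intracellular pathogens. The signal of Iigp1 was 5311, 4869, 5287 and 4375 without diabetes or RBX, and 10109, 9820.5, 10334 and 10619 with diabetes alone. Non-diabetic mice on RBX had 11165, 8094, 10464 and 10389.8, and diabetic mice on RBX had 9649, 10231, 9889 and 12818. The untreated non-diabetic mice were the lowest 4 of the 16, with no overlap with any other group. Iigp1 rose in diabetic mice by 1.05 (SE 0.11, adjusted p = 0.00021), a 2.07-fold change with a 95% interval of 0.81 to 1.28 on the log2 scale. Of the 7 members that rose, Iigp1 alone passed in all 29 alternative fits of this comparison, with adjusted p from 1.2e-05 to 0.0028. A second probe set of Iigp1 differed by 0.85 (SE 0.12).

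Igtp measured 1612, 1781, 1504 and 1326 in the untreated non-diabetic group, and 2107, 2107, 2359.9 and 2423 in the diabetic group. The RBX groups gave 3233, 2806, 2452 and 3222 without diabetes, and 2676, 2871, 1748 and 2944 with it. Its 4 diabetic mice were all above the untreated non-diabetic mice, with a difference of 0.54 (SE 0.16, adjusted p = 0.0985) that did not pass. Gbp2 had signals of 5101, 4554, 5254 and 4889 in the 4 untreated non-diabetic mice, and of 6428, 6073, 6686 and 6610.3 in the 4 diabetic mice. For Gbp2 under RBX the values were 7049, 7485, 4706 and 8244 in the non-diabetic group, and 5542, 4598, 4976 and 5217 in the diabetic group. The diabetic mice were again all higher, by 0.38 (SE 0.13, adjusted p = 0.162). Gbp2 was the one member whose diabetic RBX mice all lay below the diabetic mice.

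The signal of Gbp3 was 2114, 1323, 1596 and 1605 without diabetes or RBX, and 2270.2, 1977, 2624 and 1968 with diabetes alone. Under RBX the signals were 2483, 2491, 2116 and 3853 without diabetes, and 1841, 2432, 2346 and 2574 with diabetes. Irgm1, a regulator of the other immunity-related GTPases, had signals of 2382, 2355, 2392 and 2306 in untreated non-diabetic mice, and 2549.8, 2951, 3517 and 3336 in diabetic mice. With RBX, Irgm1 read 3001, 2853, 3358 and 2933 in non-diabetic and 3084, 2844, 2549.7 and 3195 in diabetic mice. Gbp3 overlapped between diabetic and untreated non-diabetic mice, at 0.42 (SE 0.18, adjusted p = 0.264), and Irgm1 did not, at 0.38 (SE 0.11, adjusted p = 0.107). Of the remaining GTPases, Irgm2 differed by 0.66 (SE 0.21, adjusted p = 0.133) and the antiviral Mx1 by 0.91 (SE 0.52, adjusted p = 0.427). Irgm2 lies directly beside Igtp in the RefSeq gene order (GRCm38.p6), and diabetic mouse 3 was its highest, at 3867. Mx1 ranged from 116 to 515 in the untreated non-diabetic mice and from 531 to 758 in the diabetic mice. Neither gene overlapped between these groups. The mean of Mx1 was 372 in untreated non-diabetic mice, under the filter's level of 381.5, so Mx1 passed the filter through the other groups. It is counted among the members without overlap, and its separation is not independent of the filter.

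The IFIT proteins bind foreign RNA, and the OAS enzymes make the second messenger that activates RNase L. Ifit1 measured 1259, 1136, 1673 and 1004 in the untreated non-diabetic group, and 1597, 3171, 3409.6 and 3189 in the diabetic group. In mice fed RBX they were 2509.8, 2079, 2192 and 1636 (non-diabetic), and 2500.1, 2755, 2465 and 2452 (diabetic). Diabetic mouse 1 lay within the untreated non-diabetic range, and the other 3 diabetic mice were the highest of all 16. Ifit1 rose in diabetic mice by 1.13 (SE 0.21, adjusted p = 0.0199). Oasl2 had signals of 1806, 1607, 1678 and 1629.8 in the 4 untreated non-diabetic mice, and of 2199, 2880.5, 4443 and 2907 in the 4 diabetic mice. With RBX, Oasl2 measured 4800.2, 3662, 3247 and 3642 in non-diabetic mice, and 3559, 2659.7, 2963 and 3892 in diabetic ones. Diabetic mouse 3 was the highest of its group, and no diabetic mouse reached down to the untreated non-diabetic mice. Oasl2 rose by 0.84 (SE 0.18, adjusted p = 0.0343).

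The signal of Ifit3 was 4021, 3674, 3450.2 and 2810.1 without diabetes or RBX, and 4724, 5206, 5987 and 4507 with diabetes alone. Non-diabetic mice on RBX had 5534, 4937, 4647 and 4077, and diabetic mice on RBX had 4328, 5369.7, 5740.5 and 5903. The diabetic mice were all above the untreated non-diabetic mice, by 0.55 (SE 0.13, adjusted p = 0.0602), just outside the threshold. Oas2 measured 535, 582, 521 and 782 in the untreated non-diabetic group, and 762, 935, 1309 and 1047 in the diabetic group. The RBX groups gave 1464, 1256, 1587 and 1555 without diabetes, and 813, 1349, 1143 and 1412 with it. One diabetic mouse lay below the highest untreated non-diabetic mouse, and the difference was 0.74 (SE 0.21, adjusted p = 0.0881). Ifit2, the direct neighbour of Ifit3, differed by 0.20 (SE 0.18, adjusted p = 0.655), with diabetic signals from 1819.5 to 3530.1 around untreated signals of 2177 to 2504.

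Oas1a had signals of 2629, 2806, 3417 and 2415 in the 4 untreated non-diabetic mice, and of 3371, 3633, 4699 and 4003 in the 4 diabetic mice. For Oas1a under RBX the values were 4074, 5305, 5704 and 5211 in the non-diabetic group, and 4102, 3540.0, 4296 and 4388 in the diabetic group. The groups touched at their edges, and the difference was 0.48 (SE 0.13, adjusted p = 0.0882). The signal of Oasl1 was 389.7, 252, 476 and 669 without diabetes or RBX, and 778, 582, 746 and 629.9 with diabetes alone. Under RBX the signals were 779, 900.0, 933 and 1250.5 without diabetes, and 519.9, 662, 230.1 and 848 with diabetes. Oasl1 is the direct neighbour of Oasl2, overlapped between these groups, and differed by 0.69 (SE 0.35, adjusted p = 0.356). The kinase Eif2ak2, also known as PKR, which stops translation when it binds double-stranded RNA, differed by 0.12 (SE 0.23, adjusted p = 0.858) on the probe set used.

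Ifih1, Ddx58 and Dhx58 are RNA helicases that detect viral RNA in the cytoplasm, and Zbp1 detects left-handed nucleic acid. Ifih1 measured 2346, 2449, 2168 and 2328 in the untreated non-diabetic group, and 3102, 3628, 3718 and 3042 in the diabetic group. In mice fed RBX they were 3827, 4026, 4145 and 3999.5 (non-diabetic), and 3059, 4065, 3472 and 3205 (diabetic). No mouse of the other 3 groups overlapped the untreated non-diabetic mice, and Ifih1 rose in diabetic mice by 0.53 (SE 0.11, adjusted p = 0.0264). Ddx58 (RIG-I) differed by 0.23 (SE 0.19, adjusted p = 0.63), Dhx58 by 0.33 (SE 0.37, adjusted p = 0.735) and Zbp1 by 0.24 (SE 0.37, adjusted p = 0.818). None of those 3 passed.

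Of the transcription factors that carry interferon signals to DNA, none passed in diabetic mice. Irf7, which amplifies type I interferon production, had the smallest p of them. Irf7 had signals of 1524, 943, 1473 and 1008 in the 4 untreated non-diabetic mice, and of 1367, 2689.5, 3152 and 1529 in the 4 diabetic mice. With RBX, Irf7 measured 1994, 1652, 1481 and 1568 in non-diabetic mice, and 2194, 1596, 1611 and 1722 in diabetic ones. Diabetic mice 2 and 3 were the highest of all 16, while mouse 1 lay within and mouse 4 just above the untreated non-diabetic range. The difference was 0.76 (SE 0.24, adjusted p = 0.125). The signal of Irf1 was 2730.1, 2669.6, 2953 and 2335 without diabetes or RBX, and 2866, 3525, 3038 and 2769 with diabetes alone. Non-diabetic mice on RBX had 4687, 3626, 3988 and 2905, and diabetic mice on RBX had 3228, 2969.9, 2197 and 3199. Irf1 differed by 0.19 (SE 0.15, adjusted p = 0.595), Irf9 by 0.35 (SE 0.14, adjusted p = 0.223) and Stat2 by 0.40 (SE 0.29, adjusted p = 0.554).

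Usp18 removes the ubiquitin-like Isg15 from proteins and dampens the type I receptor, and Parp14 and Parp9 transfer ADP-ribose or partner in doing so. Parp14 measured 2205, 1815, 2130.1 and 2192 in the untreated non-diabetic group, and 2731, 2751, 3864 and 2885 in the diabetic group. The RBX groups gave 3435, 3402, 3894 and 4579 without diabetes, and 2975, 2889.9, 2902 and 3059 with it. The diabetic mice were all above the untreated non-diabetic mice, by 0.54 (SE 0.13, adjusted p = 0.0552). Usp18 had signals of 737, 709, 811 and 784 in the 4 untreated non-diabetic mice, and of 660.2, 1319.7, 1393 and 1078 in the 4 diabetic mice. For Usp18 under RBX the values were 1152, 1349, 1713 and 948 in the non-diabetic group, and 1102, 1166, 929.7 and 1328 in the diabetic group. Usp18 differed by 0.49 (SE 0.22, adjusted p = 0.297) and had 1 diabetic mouse below all untreated non-diabetic mice. Parp9 differed by 0.25 (SE 0.11, adjusted p = 0.302).

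Of the membrane and other effectors, Bst2 (tetherin) holds budding viruses at the cell surface and Ifitm3 blocks their fusion. The signal of Bst2 was 1970.5, 1503, 2574 and 2244 without diabetes or RBX, and 2845, 3005, 4888 and 3986 with diabetes alone. Under RBX the signals were 2934, 3224, 4259 and 3070.1 without diabetes, and 3779, 3797, 3911 and 4459 with diabetes. The diabetic mice did not overlap the untreated non-diabetic mice, and Bst2 rose by 0.82 (SE 0.18, adjusted p = 0.0414). Ifitm3 measured 47098, 46173, 43128 and 47030.5 in the untreated non-diabetic group, and 54075, 62828, 73275 and 64527 in the diabetic group. In mice fed RBX they were 62769.5, 69888, 68488 and 51907 (non-diabetic), and 61393, 62320.5, 67269 and 62384 (diabetic). Ifitm3 rose by 0.47 (SE 0.10, adjusted p = 0.0429), again with no overlap.

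Rtp4 had signals of 3276, 2254, 2524 and 3605 in the 4 untreated non-diabetic mice, and of 4799.8, 5556, 7342 and 5367 in the 4 diabetic mice. With RBX, Rtp4 measured 7402, 4623, 6680.3 and 3762 in non-diabetic mice, and 7547, 4276, 6443 and 7392 in diabetic ones. Rtp4, a chaperone for membrane receptors, rose by 0.99 (SE 0.22, adjusted p = 0.0429), and its diabetic mice were all above the untreated non-diabetic mice. The signal of Rsad2 was 3015, 1956, 3231 and 2493 without diabetes or RBX, and 3969.6, 4925, 8916 and 4741 with diabetes alone. Non-diabetic mice on RBX had 3951, 5789, 6103 and 4064, and diabetic mice on RBX had 3374, 7651, 5162 and 8855. Rsad2 (viperin), which makes a chain-terminating nucleotide, had no overlap between these groups and a difference of 1.03 (SE 0.28, adjusted p = 0.0759) on this probe set. On another of its 3 probe sets the difference was 1.31 (SE 0.27, adjusted p = 0.0461 over all bright probe sets).

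Samhd1 measured 3662, 3226, 4584 and 3508 in the untreated non-diabetic group, and 4137, 4006, 4522 and 4373 in the diabetic group. The RBX groups gave 4853, 5284, 4564 and 5924 without diabetes, and 4640.3, 5392, 4508 and 5338 with it. Samhd1, which depletes nucleotides, overlapped between diabetic and untreated non-diabetic mice, at 0.20 (SE 0.11, adjusted p = 0.439). Xaf1 had signals of 1848, 2195, 2267 and 1786 in the 4 untreated non-diabetic mice, and of 2604, 2604, 3325 and 2117 in the 4 diabetic mice. For Xaf1 under RBX the values were 2825, 3169.9, 3061 and 2303 in the non-diabetic group, and 2798, 2628, 2568 and 2724 in the diabetic group. The pro-apoptotic Xaf1 overlapped between the groups and differed by 0.39 (SE 0.14, adjusted p = 0.179). The signal of Ifi35 was 11239, 10711, 11132 and 10495 without diabetes or RBX, and 11879, 11553, 12645 and 12106 with diabetes alone. Under RBX the signals were 15408, 15466, 14270.5 and 15821 without diabetes, and 11971, 12265, 12567 and 13031 with diabetes. Ifi35 differed by only 0.14 (SE 0.07, adjusted p = 0.344), yet its 4 diabetic mice were above all 4 untreated non-diabetic mice.

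The chemokine Cxcl10, which draws activated T cells, went apart from the other members. Cxcl10 measured 613, 479, 398 and 726 in the untreated non-diabetic group, and 371, 622, 558 and 696 in the diabetic group. In mice fed RBX they were 57.4, 520.0, 503 and 589 (non-diabetic), and 319.9, 636, 517 and 421 (diabetic). The groups overlapped throughout, with a difference of 0.02 (SE 0.55, adjusted p = 0.992) in diabetic mice. Its only very low value was 57.4, in non-diabetic RBX mouse 1. Cxcl9 was below the brightness filter, with means of 326, 727, 335 and 342 in untreated non-diabetic, non-diabetic RBX, diabetic and diabetic RBX mice on its brighter probe set.

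**Figure D3:**
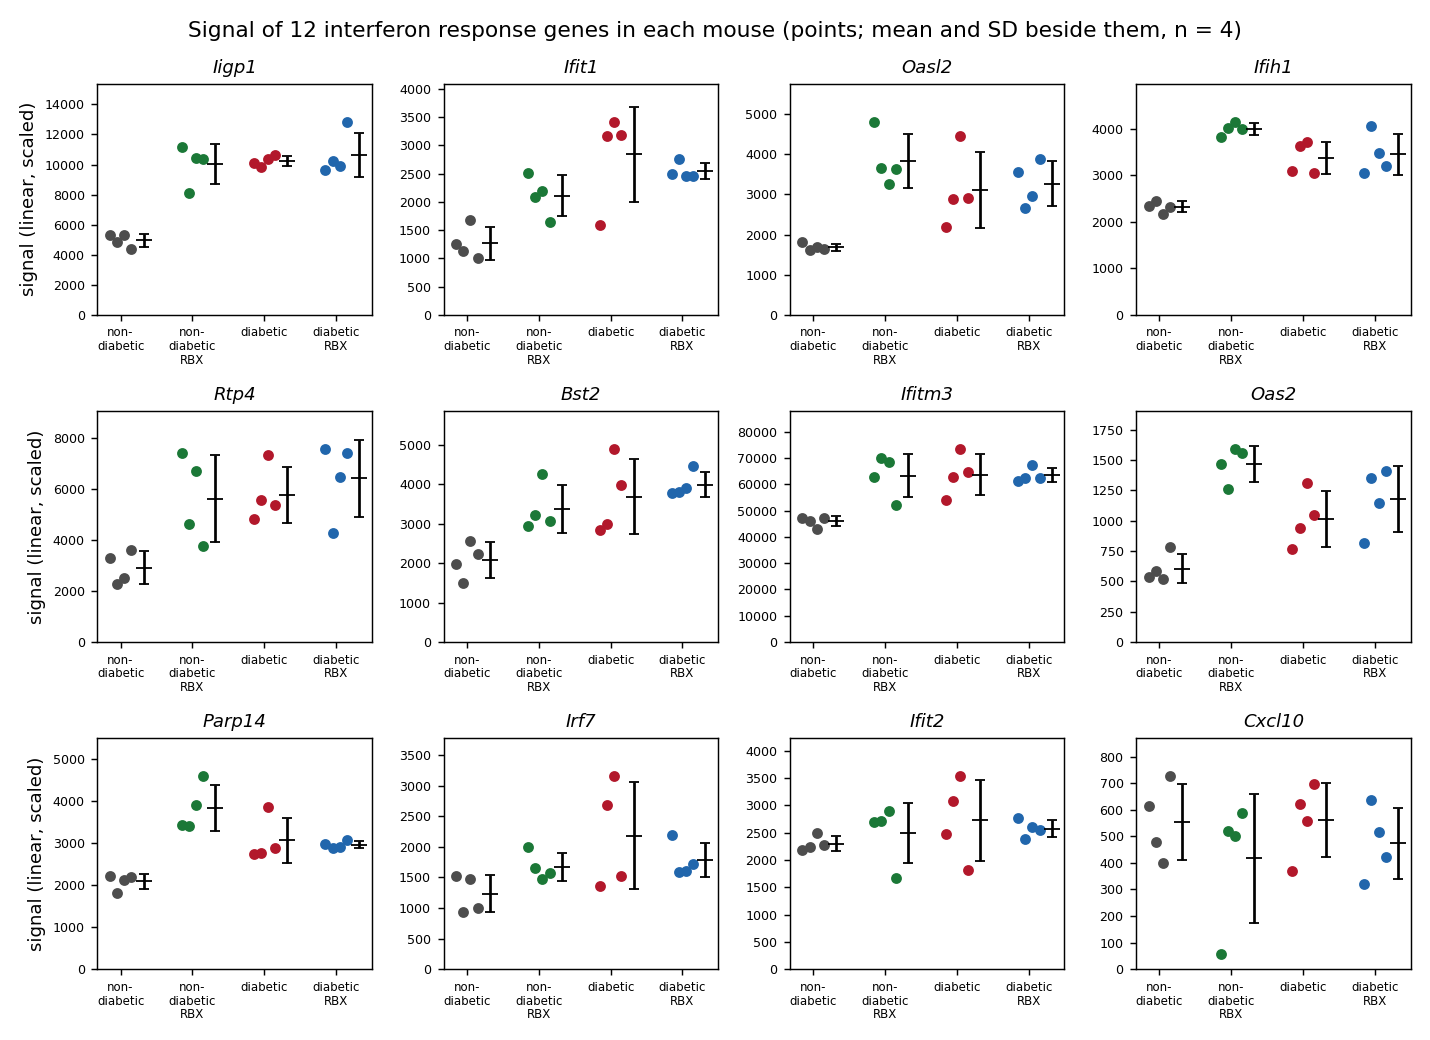
Signal of 12 members in each mouse (points, linear scale starting at 0) by group, with the mean and SD of the 4 mice beside them. Iigp1 is between 4375 and 5311 in untreated non-diabetic mice and between 8094 and 12818 in all others, whereas Ifit2 and Cxcl10 overlap between all groups.

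In non-diabetic mice given RBX, members of 6 of the 7 roles rose against untreated non-diabetic mice, on arrays where many other genes were called too. Of the 34 members, 22 rose and none fell, while 16.5% of all genes were called higher and 31.6% in either direction. The median over the members was 0.56, against 0.03 over all genes, and 32 members were above 0, against 53.2% of all genes. In 19 members the groups did not overlap, with RBX higher, which held for 14.3% of all genes. The 3 largest differences were those of Oas2, Oasl2 and Oasl1, with Oas2 at 1.29 (SE 0.21, adjusted p = 0.000169), Oasl2 at 1.18 (SE 0.18, adjusted p = 9.85e-05), Oasl1 at 1.18 (SE 0.35, adjusted p = 0.0159) and the related Oas1a at 0.85 (SE 0.13, adjusted p = 0.000157).

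Among the GTPases, 5 of 7 measured members rose: Iigp1 by 1.01 (SE 0.11, adjusted p = 7.42e-06), Igtp by 0.91 (SE 0.16, adjusted p = 0.000294), Gbp3 by 0.70 (SE 0.18, adjusted p = 0.00642), Gbp2 by 0.44 (SE 0.13, adjusted p = 0.0156) and Irgm1 by 0.36 (SE 0.11, adjusted p = 0.02). All 7 measured membrane and other effectors rose, from 0.46 (SE 0.10, adjusted p = 0.00284) for Ifitm3 to 0.92 (SE 0.22, adjusted p = 0.00408) for Rtp4. Of the other roles, Ifih1 rose by 0.78 (SE 0.11, adjusted p = 3.96e-05), Parp14 by 0.87 (SE 0.13, adjusted p = 7.56e-05), Usp18 by 0.73 (SE 0.22, adjusted p = 0.0181) and Irf1 by 0.49 (SE 0.15, adjusted p = 0.0176). Ifit1 rose by 0.74 (SE 0.21, adjusted p = 0.0121) and Ifit3 by 0.46 (SE 0.13, adjusted p = 0.0139).

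The 12 members that did not pass included both remaining nuclear factors of the type I pathway, Irf9 at 0.29 (SE 0.14, adjusted p = 0.113) and Stat2 at 0.15 (SE 0.29, adjusted p = 0.723), and Irf7 at 0.46 (SE 0.24, adjusted p = 0.144). Eif2ak2 at -0.31 (SE 0.23, adjusted p = 0.306) and Cxcl10 at -0.82 (SE 0.55, adjusted p = 0.271) were the only members below 0. The others were Ddx58, Dhx58, Zbp1, Irgm2, Mx1, Ifit2 and Parp9, with differences from 0.09 to 0.73. With the cre signal as a covariate none of the 34 members and none of the 11042 genes passed, and the members' median was 0.50. With the Actb ratio as a covariate 3 members passed and the median was 0.76. The 2 non-diabetic groups do not overlap in either measure, so RBX and these array measures cannot be told apart here.

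**Figure D4:**
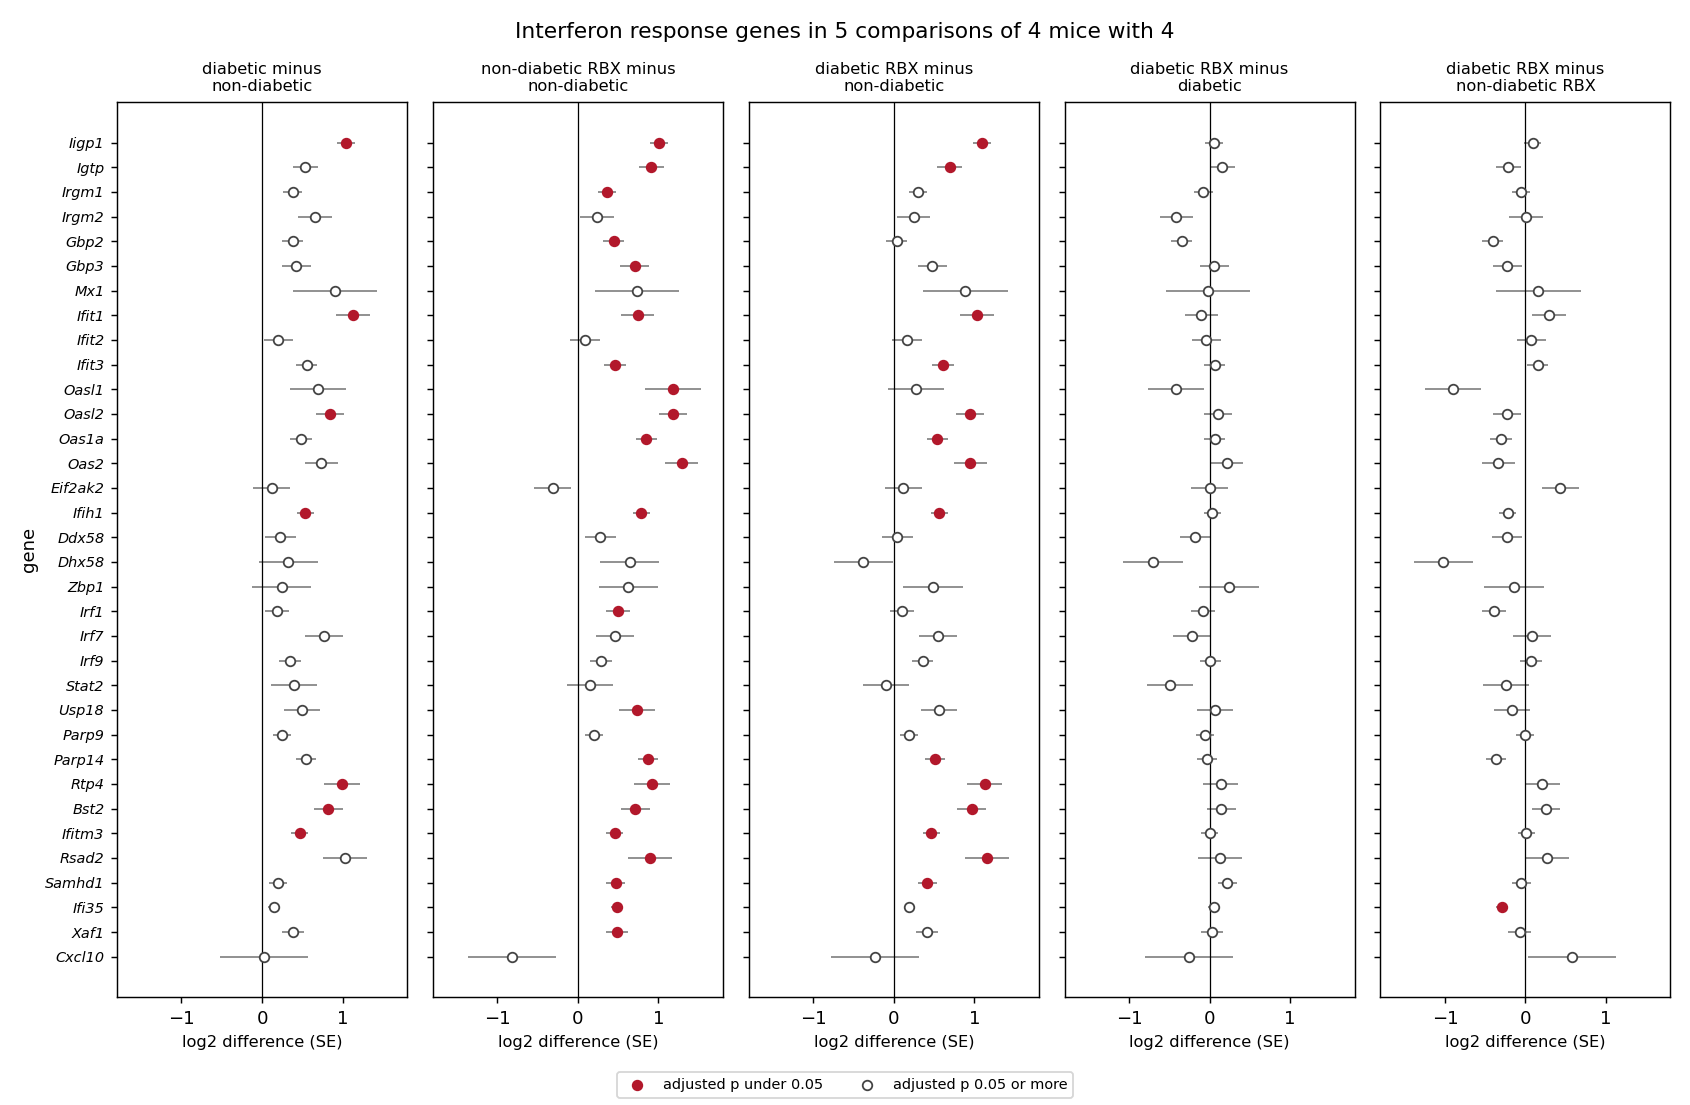
Log2 difference (point) and standard error (line) of the 34 members in 5 comparisons of 4 mice with 4. Filled points passed an adjusted p of 0.05; the first 3 panels share the untreated non-diabetic mice, 7, 22 and 14 members passed in them, and the fourth panel, RBX in diabetic mice, centres on 0.

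In diabetic mice, RBX was not followed by a detected change of the members. None of the 34 passed in limma, 0.0453% of all genes did, and 1 member, Gbp2, had an unadjusted p under 0.05, against 9.18% of all genes. The median was 0.01 over the members and -0.02 over all genes, with 18 members above 0 and 16 below, and 46.7% of all genes above 0. Gbp2 differed by -0.35 (SE 0.13, adjusted p = 0.426), with no overlap, as in 3.65% of all genes. Iigp1 differed by 0.05 (SE 0.11, adjusted p = 0.927), with a 95% interval of -0.18 to 0.28, and Ifih1 by 0.03 (SE 0.11, adjusted p = 0.957). For 18 of the 34 members the 95% interval lay within 0.5 of 0 on the log2 scale, and for the others this design did not set so narrow a limit. The intervals reached farthest down in Dhx58, to -1.47, and farthest up in Mx1, to 1.08.

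The diabetic RBX mice were also set against the untreated non-diabetic mice, a comparison added after the data were seen and one that shares its controls with the first 2. Here 14 of the 34 members rose and none fell, against 2.19% of all genes called higher and 3.93% in either direction. The members' median was 0.47, against -0.01 over all genes, and 31 were above 0, against 48.9% of all genes. In 17 members the groups did not overlap, with the diabetic RBX mice higher, against 7.41% of all genes. Iigp1 rose by 1.10 (SE 0.11, adjusted p = 0.000103), Rsad2 by 1.16 (SE 0.28, adjusted p = 0.0289), Rtp4 by 1.13 (SE 0.22, adjusted p = 0.0129), Ifit1 by 1.03 (SE 0.21, adjusted p = 0.0158) and Bst2 by 0.97 (SE 0.18, adjusted p = 0.00872). The rest that rose were Oas2, Oasl2, Igtp, Ifit3, Ifih1, Oas1a, Parp14, Ifitm3 and Samhd1, by 0.42 to 0.95. The call of Samhd1 held in 9 of 29 alternative fits. On 1 of its other bright probe sets the mean was 1208 in diabetic RBX mice and 1777 in untreated non-diabetic mice. On the rest the diabetic RBX mean was the higher. Gbp2, which rose with RBX alone, was at 0.04 (SE 0.13, adjusted p = 0.905). These 2 groups also do not overlap in the cre signal (17.26 to 17.93 against 18.00 to 18.17) or in the Actb ratio (0.85 to 1.32 against 1.47 to 1.89), so treatment and these array measures cannot be told apart. With the cre signal as a covariate 2 members passed, and 2 with the Actb ratio. Of the measured cell markers, 5 of 18 of endothelium, 3 of 13 of fibroblasts, 2 of 3 of neutrophils and 2 of 23 of macrophages rose here. The list of neutrophil markers held 8 genes. The part of these cell markers in the members' differences was not tested. Leaving out 1 mouse gave 5 calls without untreated non-diabetic mouse 2 or diabetic RBX mouse 2, 6 without untreated non-diabetic mouse 4, 7 without untreated non-diabetic mouse 1 or diabetic RBX mouse 4, and 8 without diabetic RBX mouse 3.

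Among mice given RBX, diabetic mice were set against non-diabetic mice. Of the 34 members, 1 fell and none rose, against 2.66% of all genes called lower and 7.1% in either direction. The median was -0.07 over the members and -0.04 over all genes, with 14 members above 0 and 20 below, and 44.5% of all genes above 0. The member that fell was Ifi35, at -0.29 (SE 0.07, adjusted p = 0.0185). Dhx58 had the largest difference, -1.02 (SE 0.37, adjusted p = 0.097), followed by Oasl1 at -0.90 (SE 0.35, adjusted p = 0.124), and neither passed. Iigp1 stood at 0.09 (SE 0.11, adjusted p = 0.67) and Ifitm3 at 0.01 (SE 0.10, adjusted p = 0.961). Across the RBX groups Parp14 differed by -0.36 (SE 0.13, adjusted p = 0.0873), with no overlap between the 2 groups, which held for 2 members and for 6.25% of all genes in that direction. No member passed without diabetic RBX mouse 1 or with either array measure as a covariate, and 2 passed without non-diabetic RBX mouse 3 or diabetic RBX mouse 3.

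The test of whether the effect of RBX differed between diabetic and non-diabetic mice called 11 of the 34 members, all with a lower effect in diabetic mice, against 5.5% of all genes called lower and 11.5% in either direction. The median over the members was -0.65, against -0.06 over all genes, and 32 members were below 0, with 45% of all genes above it. Of the 11, 4 were of the OAS family, with Oasl1 at -1.59 (SE 0.49, adjusted p = 0.0439), Oas2 at -1.08 (SE 0.29, adjusted p = 0.0236), Oasl2 at -1.07 (SE 0.25, adjusted p = 0.0106) and Oas1a at -0.79 (SE 0.19, adjusted p = 0.0131). The GTPases Iigp1 at -0.96 (SE 0.16, adjusted p = 0.000935), Gbp2 at -0.79 (SE 0.19, adjusted p = 0.0113) and Igtp at -0.75 (SE 0.22, adjusted p = 0.0335) passed, as did Parp14 at -0.90 (SE 0.18, adjusted p = 0.00359) and Ifih1 at -0.75 (SE 0.15, adjusted p = 0.00365). Ifitm3, at -0.46 (SE 0.15, adjusted p = 0.0495), and Ifi35, at -0.44 (SE 0.10, adjusted p = 0.0101), were the others. These calls were not equally stable. That of Oasl1 held in 11 of 27 alternative fits, that of Ifitm3 in 8 of 28 and that of Igtp in 19 of 28. Those of Iigp1 and Oasl2 each held in 27 of 28. The 2 members above 0 were Eif2ak2 and Cxcl10, and neither passed. This contrast contains the non-diabetic RBX arrays, and none of the 34 members and none of the 11042 genes passed with the cre signal as a covariate; with the Actb ratio 5 members did. Without diabetic mouse 3 the count was 7. Markers of cell types moved in this test too. Lower effects were called in 9 of 18 of endothelium (median -0.68) and 7 of 23 of macrophages (median -0.66). They were also called in 3 of 9 of adipocytes and 2 of 13 of fibroblasts. Of contractile smooth muscle, 13 of 17 were called higher (median 1.25). The part of these markers in the members' differences was not tested.

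In all, 9 of the 34 tested members had more than 1 bright probe set, and in some of them the probe sets disagreed. The results above use the brightest probe set of each gene. For Ifi35 that probe set gave 0.48 for RBX in non-diabetic mice, while its other 2 gave -0.13 (SE 0.14) and -0.06 (SE 0.13), so the Ifi35 calls rest on 1 probe set. For Stat2 the second probe set gave 1.40 (SE 0.37, adjusted p = 0.0812) in diabetic mice and 1.21 (SE 0.37, adjusted p = 0.0167) for RBX in non-diabetic mice, with p adjusted over all bright probe sets. The second Stat2 probe set had signals of 249 ± 85.4 (SD, n = 4) in untreated non-diabetic mice, under the filter's level, and of 627 ± 95.8 (SD, n = 4) in diabetic mice. For Eif2ak2 the other 2 probe sets gave 0.58 (SE 0.29) and 0.29 (SE 0.23) for RBX in non-diabetic mice, opposite in sign to the one used. In diabetic mice these other Eif2ak2 probe sets had means of 731 and 1455, against 477 and 1034 in untreated non-diabetic mice. On the second of them these groups did not overlap. One of the 5 bright probe sets of Samhd1 also ran against the rest for RBX in non-diabetic mice, at -0.13 (SE 0.55). The IFIT, OAS, GBP and IRG families hold close copies of one another, and whether probes bind transcripts of relatives was not tested.

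Within groups, the members tended to be high or low in the same mice. Over the 561 pairs of members, the correlation of deviations from the group means across the 16 mice had a median of 0.21, and 396 pairs were above 0, against a median of 0.0023 over all gene pairs. The points share their arrays, and the value is a description. Irgm1, Oasl2 and Usp18 had the highest mean correlation with the other members, at 0.33, 0.33 and 0.33, and Gbp2 the lowest, at -0.07. Diabetic mouse 3 had the highest member mean of all 16, at 0.76.

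Genes that act upstream of the members were examined from lists of ligands, receptors and sensors. Some of the 21 interferon ligands listed had no probe set with their symbol alone, and none of the rest had one above the brightness filter. Ifng had group means of 57.4, 69.6, 50.4 and 67.0 and Ifnb1 of 149, 245, 88.7 and 218, in untreated non-diabetic, non-diabetic RBX, diabetic and diabetic RBX mice, where the filter stood at 381.5. Of 14 measured receptors and signalling genes, none passed in diabetic mice. With RBX in non-diabetic mice 3 rose and 2 fell, a share near the 31.6% of all genes called there. The type I receptor chain Ifnar1 rose there by 0.32 (SE 0.12, adjusted p = 0.0454), Il10rb, a chain shared with type III interferon, by 0.51 (SE 0.15, adjusted p = 0.0157) and the transcription factor Irf8 by 0.55 (SE 0.19, adjusted p = 0.034). The phosphatases Ptpn2 and Ptpn11, which act on JAK and STAT signals, fell by 0.44 and by 0.33 on the log2 scale. In diabetic mice Ifnar1 differed by 0.24, Ifnar2 by 0.12, Ifngr1 by 0.21 and Ifngr2 by 0.12.

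Of 14 measured genes of nucleic acid sensing upstream of interferon, none passed in diabetic mice and 3 rose with RBX in non-diabetic mice, a share near the 16.5% of all genes called higher there. These were the endosomal RNA receptor Tlr7 (0.88, adjusted p = 0.007), the DNA sensor Cgas (0.75, adjusted p = 0.0333) and its adaptor Sting1 (0.72, adjusted p = 0.0199). Sting1 differed by 0.79 (SE 0.22, adjusted p = 0.0911) in diabetic mice. A further list of 75 interferon-induced genes outside the 39, of which 54 were measured, was set beside the members. In diabetic mice 2 of the 54 rose and none fell, with a median of 0.27, where 0.326% of all genes were called higher. They were Ly6e, by 0.58 (SE 0.10, adjusted p = 0.012), and the immunoproteasome subunit Psmb8, by 0.59 (SE 0.13, adjusted p = 0.0427). With RBX in non-diabetic mice 32 rose and 1, Samd9l, fell, with a median of 0.47, where 16.5% of all genes were called higher. With RBX in diabetic mice none passed and the median was -0.01. In the test of unequal RBX effects 13 were lower and none higher, with Psmb8 at -1.15 (SE 0.18, adjusted p = 0.000739), where 5.5% of all genes were called lower. With the cre signal as a covariate none of the 11042 genes passed in these last comparisons, of RBX in non-diabetic mice and of unequal RBX effects.

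**Figure D5:**
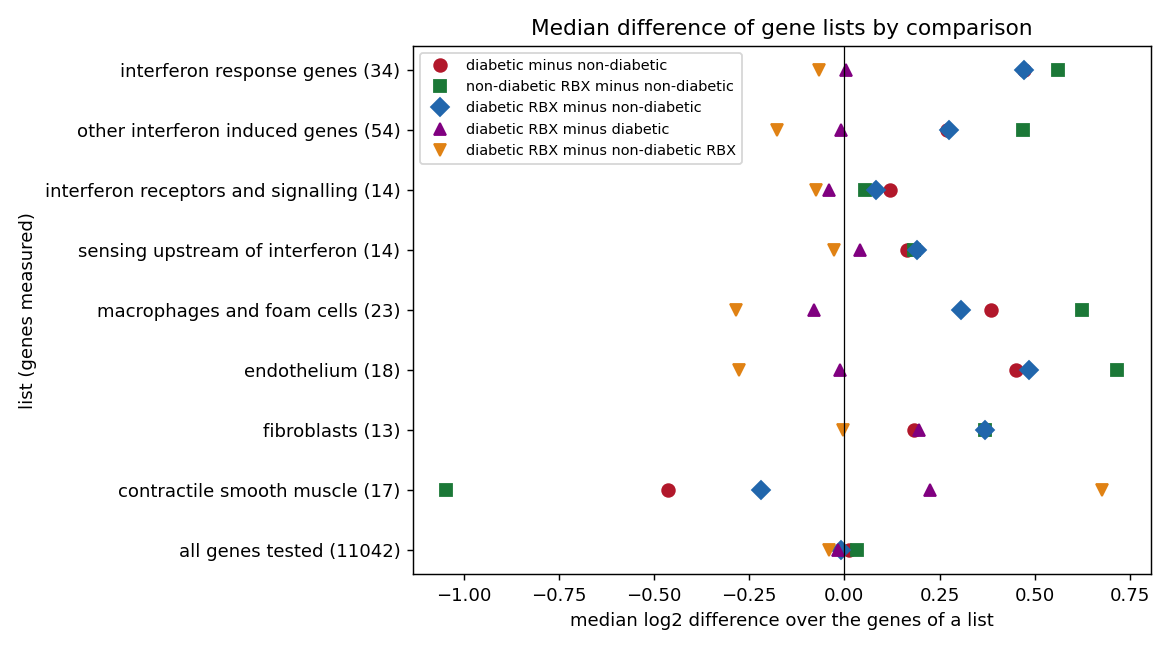
Median log2 difference over the genes of each list (rows, with the number measured) in 5 comparisons (symbols). The interferon response genes and the other interferon induced genes lie above 0 against untreated non-diabetic mice and near 0 for RBX in diabetic mice, and markers of endothelium and macrophages do likewise, while contractile smooth muscle lies below 0 in non-diabetic RBX mice.

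Markers of cell types moved in the same comparisons. In the diabetic mice 22 of 23 measured macrophage markers were above 0, with none called and a median of 0.39. All 18 endothelial markers were above 0, with Cldn5 called and a median of 0.45. Over all genes 52.4% were above 0 in diabetic mice and 0.326% were called higher. The 17 measured genes of contractile smooth muscle had a median of -0.46 with none called. With RBX in non-diabetic mice, 15 macrophage markers rose (median 0.62), 14 endothelial markers rose (median 0.72) and 13 smooth muscle genes fell while 2 rose (median -1.04). In the same comparison all 3 measured neutrophil markers rose (median 0.93), as did 6 of 13 of fibroblasts (median 0.37) and 4 of 9 of adipocytes (median 0.97). Over all genes 16.5% were called higher there and 31.6% in either direction. Of the 8 neutrophil markers listed, Ly6g, Mpo, Elane, Retnlg and Cxcr2 were below the filter or not analysed here. With RBX in diabetic mice none of the markers of macrophages, endothelium or contractile smooth muscle passed, and their medians were -0.08, -0.01 and 0.22. None of those of neutrophils, fibroblasts or adipocytes passed either, with medians of 0.38, 0.20 and -0.04. The summed signal of endothelial markers was 75401 to 88506 in untreated non-diabetic mice, 113390.0 to 160660.0 in non-diabetic RBX mice, 85386 to 132222 in diabetic mice and 104880.0 to 121141 in diabetic RBX mice. The summed signal of macrophage markers was 498760.0 to 757118, 657210.0 to 1091030.0, 591389 to 854213 and 700362 to 734266 in the same order. The part of these cell markers in the members' differences was not tested. Of the T and NK cell markers, 17 of 20 were below the filter or not analysed here, Cd3e, Cd3d and Cd4 among them. Of the 3 measured, none passed in diabetic mice. With RBX in non-diabetic mice 1 rose, and the differences of the 3 ranged from -1.17 to 1.52. Of 8 plasmacytoid dendritic cell markers 4 were tested, and Siglech and Ccr9 were not among them. All 4 were above 0 in diabetic mice (median 0.34, none called), and with RBX in non-diabetic mice all 4 were above 0 and 2, Il3ra and Tcf4, rose (median 0.66). As markers of the labelled tissue, 17 of 18 contractile smooth muscle genes and all 18 endothelial genes were above the filter.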

How the data were processed

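RNA from the aorta of 16 mice, in 4 groups of 4 taken from the sample titles, was hybridised to 1 Affymetrix Mouse 430 2.0 array each. The authors deposited a table of linear signal intensity for 45101 probe sets, made with MAS5 per the submitters' processing notes (version and annotation build not given in the sources used here). In each array the mean after trimming 2% at each end was 1500.01, and no detection calls were used. Intensities were log2 transformed, probe sets with a mean under 381.5 (the median) were left out, and the brightest probe set with a single symbol stood for each gene, leaving 11042 genes. Differences were fitted over all 16 arrays with limma 3.58.1 in R 4.3.3 (lmFit, eBayes with an intensity trend, 12 residual degrees of freedom), with Benjamini-Hochberg adjustment over all genes and a threshold of 0.05. Promoter windows came from RefSeq, and figures were drawn with Python 3.11.15.

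The members and all gene lists were chosen with earlier results of these data known. Values in every mouse are given for members called in any of the 5 planned comparisons and for the member of smallest p in each role. Alternatives were quantile normalization, other centring, other filters, an offset, other probe set rules, no intensity trend, array weights, a replicate block, each of 2 array measures as a covariate, and leaving out each mouse. The fit of only the 2 groups compared and the comparison of diabetic RBX with untreated non-diabetic mice were chosen after seeing the data. With 4 mice per group, the number of arrays limits the precision.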

Additional observations from a re-analysis of the deposited data

Results flagged for a closer look

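In 7 of the 136 sets of 4 values, 1 per tested member and group, a single mouse stood far from the other 3 by the gap relative to the range of the set, and chance alone gives about 1 in 20 such sets. Cxcl10 was 57.4 in non-diabetic RBX mouse 1, and Ifit2 was 1676 in non-diabetic RBX mouse 4, each the low value of its group. Ifit1 was 1597 in diabetic mouse 1, against 3171 to 3409.6 in the other 3 diabetic mice. The high values were Ifit1 at 2755 and Ifitm3 at 67269 in diabetic RBX mice, and Irgm2 at 3867 and Parp14 at 3864 in diabetic mouse 3. Diabetic mouse 3 also had the highest mean over the members.

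The effect of RBX differed between diabetic and non-diabetic mice in 11 members, tested as the interaction in limma, where 5.5% of all genes were called lower and 11.5% in either direction. Markers of endothelium, macrophages and contractile smooth muscle were called in that test too. With the cre signal as a covariate none of the 34 members and none of the 11042 genes passed. The log2 differences between the 2 effects were -1.59 for Oasl1, -1.08 for Oas2, -1.07 for Oasl2 and -0.79 for Oas1a. They were -0.96 for Iigp1, -0.75 for Igtp and -0.79 for Gbp2 among the GTPases. The remaining members were Parp14 at -0.90, Ifih1 at -0.75, Ifitm3 at -0.46 and Ifi35 at -0.44. The calls of Oasl1 and Ifitm3 were lost in most alternative fits.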

How the results depend on the processing

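No call of a member changed direction under any alternative. With all probe sets tested apart, direction was scored only on the probe set used in the main fit. Other probe sets of a called member could differ in sign, as given above for Ifi35. Against untreated non-diabetic mice, diabetic mice had 7 members called, which became 4 with the mean over probe sets, 3 without an intensity trend, 20 with array weights and 1 with the cre covariate. With the Actb ratio as a covariate 3 of these 7 calls were lost and 1 other member passed. Leaving out 1 mouse in turn gave 1 to 13. RBX in non-diabetic mice had 22 called, 0 with the cre covariate (0 of 11042 genes called), 3 with the Actb ratio as a covariate, and 19 to 22 on leaving out 1 mouse; the median of 0.56 became 0.76 with the Actb ratio. RBX in diabetic mice had 0 called under every alternative run, with medians from -0.08 to 0.08 on leaving out 1 mouse. Diabetes with RBX had 1 called, 0 with either covariate and 0 to 2 on leaving out 1 mouse. With all probe sets tested apart, where a member counts if any of its bright probe sets passed, it had 2, Ifi35 and a second probe set of Gbp2. The interaction had 11 called, 0 with the cre covariate, 5 with the Actb ratio and 7 to 13 on leaving out 1 mouse. The added comparison of diabetic RBX with untreated non-diabetic mice had 14 called, 2 with either covariate and 5 to 14 on leaving out 1 mouse. The cause of these changes was not tested.

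Same-numbered mice of different groups did not deviate together: over 24 pairs the correlation ranged from -0.14 to 0.18 and 2 were above 0.1, so the numbers were not taken to pair the mice. With the replicate block the counts were 9, 22, 0, 1, 11 and 13 in the order above. Members below the filter, among them Oas3, Mx2 and Cxcl9, are limited by signal near background.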
